A study of Mus musculus with 32 samples.

Results

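The genes examined here encode 10 matricellular and adhesive glycoproteins of the extracellular matrix, to which cells adhere or which tune that adhesion: Fn1, Tnc, Sparc, Tgfbi, Thbs1, Thbs2, Spp1, Postn, Ccn1 and Ccn2. They were chosen by name, whatever their values, and 9 of the 10 were measured, each by 1 probe set, among 19938 genes in all. Spp1 (osteopontin) was not analysed here. RNA came from 32 neurosphere cultures, which are floating aggregates of stem-like cells, grown from mouse brain tumours. Each culture gave 1 Affymetrix Mouse Gene 1.0 ST array.

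All tumours descended from neurosphere cells that lacked p53 and had been taken from the wall of the lateral ventricle after birth (strain B6;129-Trp53tm1Brd). These cells were made to overexpress oncogenes and were transplanted into the brain. In the secondary tumours, MYC was overexpressed in spheres grown from a glioma (HRAS then MYC, n = 2) or HRAS in spheres grown from a primitive neuroectodermal tumour, PNET (MYC then HRAS, n = 2). HRAS and MYC given together produced tumours resembling atypical teratoid/rhabdoid tumour (HRAS+MYC, n = 7). HRAS+Bmi1 (n = 2) and HRAS (n = 5) gave gliomas, and MYC+Ezh2 (n = 5), MYC+Bmi1 (n = 3) and MYC (n = 6) gave PNETs. HRAS is a GTPase that switches on MAP kinase signalling, and MYC is a transcription factor of growth. Ezh2 and Bmi1 belong to the Polycomb complexes, which silence genes. Loss of p53 was common to all 8 groups, and there was no culture without an added oncogene. The labels name neither the vector and its promoter nor the ages of the animals, and they do not say whether replicates came from separate tumours, so the p-values measure only the spread between arrays, which may be technical. Before culture, cells carrying the transgene were selected by flow cytometry, which leaves out host cells that lack it.

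All levels below are log2 values of the authors' robust multi-array average (RMA), on which a difference of 1 is a factor of 2. The median over the 19938 genes and 32 arrays was 6.28, and it is the level meant where the text speaks of the median of all values. Over all probe sets, those without a gene name included, the medians of the arrays lay between 5.59 and 5.79. Levels of different genes depend on their probes and are not set against each other. The mouse Ezh2 probe set stood at 12.16 ± 0.12 (SD, n = 5) in MYC+Ezh2 against 10.52 ± 0.32 (SD, n = 6) in MYC cultures. For Bmi1, HRAS+Bmi1 cultures exceeded HRAS cultures by 0.89 ± 0.23 (SE, adjusted p = 0.0152). In the arrays labelled MYC+Bmi1 it was 0.24 ± 0.19 above MYC, which did not pass (adjusted p = 0.668), so the mouse probe set does not bear out that label.

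Matricellular proteins are secreted into the matrix and alter how cells adhere, move and receive growth factors, rather than giving the matrix its strength. Fibronectin, the product of Fn1, is the classical adhesive glycoprotein that integrins bind. Tenascin-C (Tnc) weakens that adhesion and is abundant in germinal zones of the developing brain and in gliomas. SPARC binds collagen and rounds cells up. The fasciclin-domain proteins TGFBI, an induced target of TGF-beta, and periostin (Postn) are integrin ligands. Thrombospondin-1 and thrombospondin-2 (Thbs1, Thbs2) are trimers that restrain angiogenesis, and thrombospondin-1 can activate latent TGF-beta. CCN1 (Cyr61) and CCN2 (connective tissue growth factor) are known targets of the YAP/TEAD transcription factors.

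Promoter sequences are shown for 4 of the genes: Ccn1, Tgfbi and Tnc, which were all higher in HRAS than in MYC cultures, and Postn, which had another pattern. Each window runs from 250 bases before to 50 bases after a start annotated by RefSeq (GRCm38.p6), 5′ to 3′ along the gene. Such windows matched 7 of the 10 genes (Tnc, Sparc, Tgfbi, Thbs2, Spp1, Postn and Ccn1). Capitals mark the letters of an AP-1 site (TGANTCA), a TEAD site (GGAATG), the letters of a TATA box (TATAAA) or those of a GC box (GGGCGG), searched on both strands. In Ccn1 a TATA box and a GC box adjoin and appear as 1 run of capitals.
Ccn1 (chr3:145649936-145650235, minus strand): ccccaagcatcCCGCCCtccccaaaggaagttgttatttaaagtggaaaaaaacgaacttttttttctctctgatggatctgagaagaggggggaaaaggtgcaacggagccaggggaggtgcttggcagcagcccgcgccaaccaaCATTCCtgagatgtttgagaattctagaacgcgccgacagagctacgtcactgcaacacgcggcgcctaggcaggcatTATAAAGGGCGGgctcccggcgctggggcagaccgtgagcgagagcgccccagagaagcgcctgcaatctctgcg
Tgfbi (chr13:56609336-56609635, plus strand): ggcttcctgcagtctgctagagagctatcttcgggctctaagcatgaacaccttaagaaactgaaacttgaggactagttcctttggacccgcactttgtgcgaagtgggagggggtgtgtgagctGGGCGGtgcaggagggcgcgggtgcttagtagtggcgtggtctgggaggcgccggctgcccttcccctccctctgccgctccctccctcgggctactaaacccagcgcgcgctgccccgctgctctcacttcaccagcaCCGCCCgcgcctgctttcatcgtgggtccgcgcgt
Tnc (chr4:64046887-64047186, minus strand): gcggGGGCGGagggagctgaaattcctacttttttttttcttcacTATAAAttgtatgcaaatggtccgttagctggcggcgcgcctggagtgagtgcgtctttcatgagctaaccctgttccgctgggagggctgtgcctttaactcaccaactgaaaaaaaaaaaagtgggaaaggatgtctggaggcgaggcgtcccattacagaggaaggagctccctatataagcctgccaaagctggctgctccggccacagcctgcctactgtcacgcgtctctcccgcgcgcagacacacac
Postn (chr3:54360857-54361156, plus strand): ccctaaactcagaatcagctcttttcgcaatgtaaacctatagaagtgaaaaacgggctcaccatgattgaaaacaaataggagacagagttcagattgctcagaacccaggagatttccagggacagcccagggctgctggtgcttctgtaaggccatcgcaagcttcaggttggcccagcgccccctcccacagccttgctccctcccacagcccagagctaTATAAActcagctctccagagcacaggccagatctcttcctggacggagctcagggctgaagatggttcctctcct
The Ccn1 window held the TEAD letters on the other strand, beginning 103 bases before the start, a TATA box 25 bases before the start and GC boxes 19 and 239 bases before it. The Tgfbi window held 1 GC box 124 bases before the start and another, on the other strand, downstream of the start. In Tnc a GC box and the letters TATAAA lay 246 and 205 bases before the start shown, and in Postn a TATA box lay 26 bases before it. Only exact letters were searched, so the similar run tatataag, nearer the Tnc start, was not marked or counted. Over the 10 windows of the 7 genes, 0 held the AP-1 letters, 1 the TEAD letters, 6 a TATA box and 4 a GC box. The 2 Tnc windows overlap and hold the same TATA and GC letters, so by gene 5 held a TATA box and 3 a GC box. Outside Ccn1 and Postn, the exact letters TATAAA lay 126 to 211 bases before a start. The other Postn window, not shown, held none of these letters. Of all 32851 RefSeq windows of the same length, 7.81% held the AP-1 letters, 14.7% the TEAD letters, 13.6% a TATA box and 35.7% a GC box. A match is a run of letters, not a shown binding site.

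The first comparison asked how HRAS gliomas and MYC PNETs differ in these genes. The HRAS cultures had more RNA of nearly the whole group: 8 of the 9 genes rose (limma, Benjamini-Hochberg adjusted p under 0.05), and 0 fell. Of all 19938 genes, 15.4% rose and 18.0% fell in that comparison. The median log2 difference of the 9 genes was 3.88, beside -0.03 over all genes, and in 7 of the 9 the arrays of the groups did not overlap with HRAS higher, against 8.88% of all genes. In bulk RNA, fewer cells expressing a gene and less RNA per cell cannot be told apart.

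**Figure D1:**
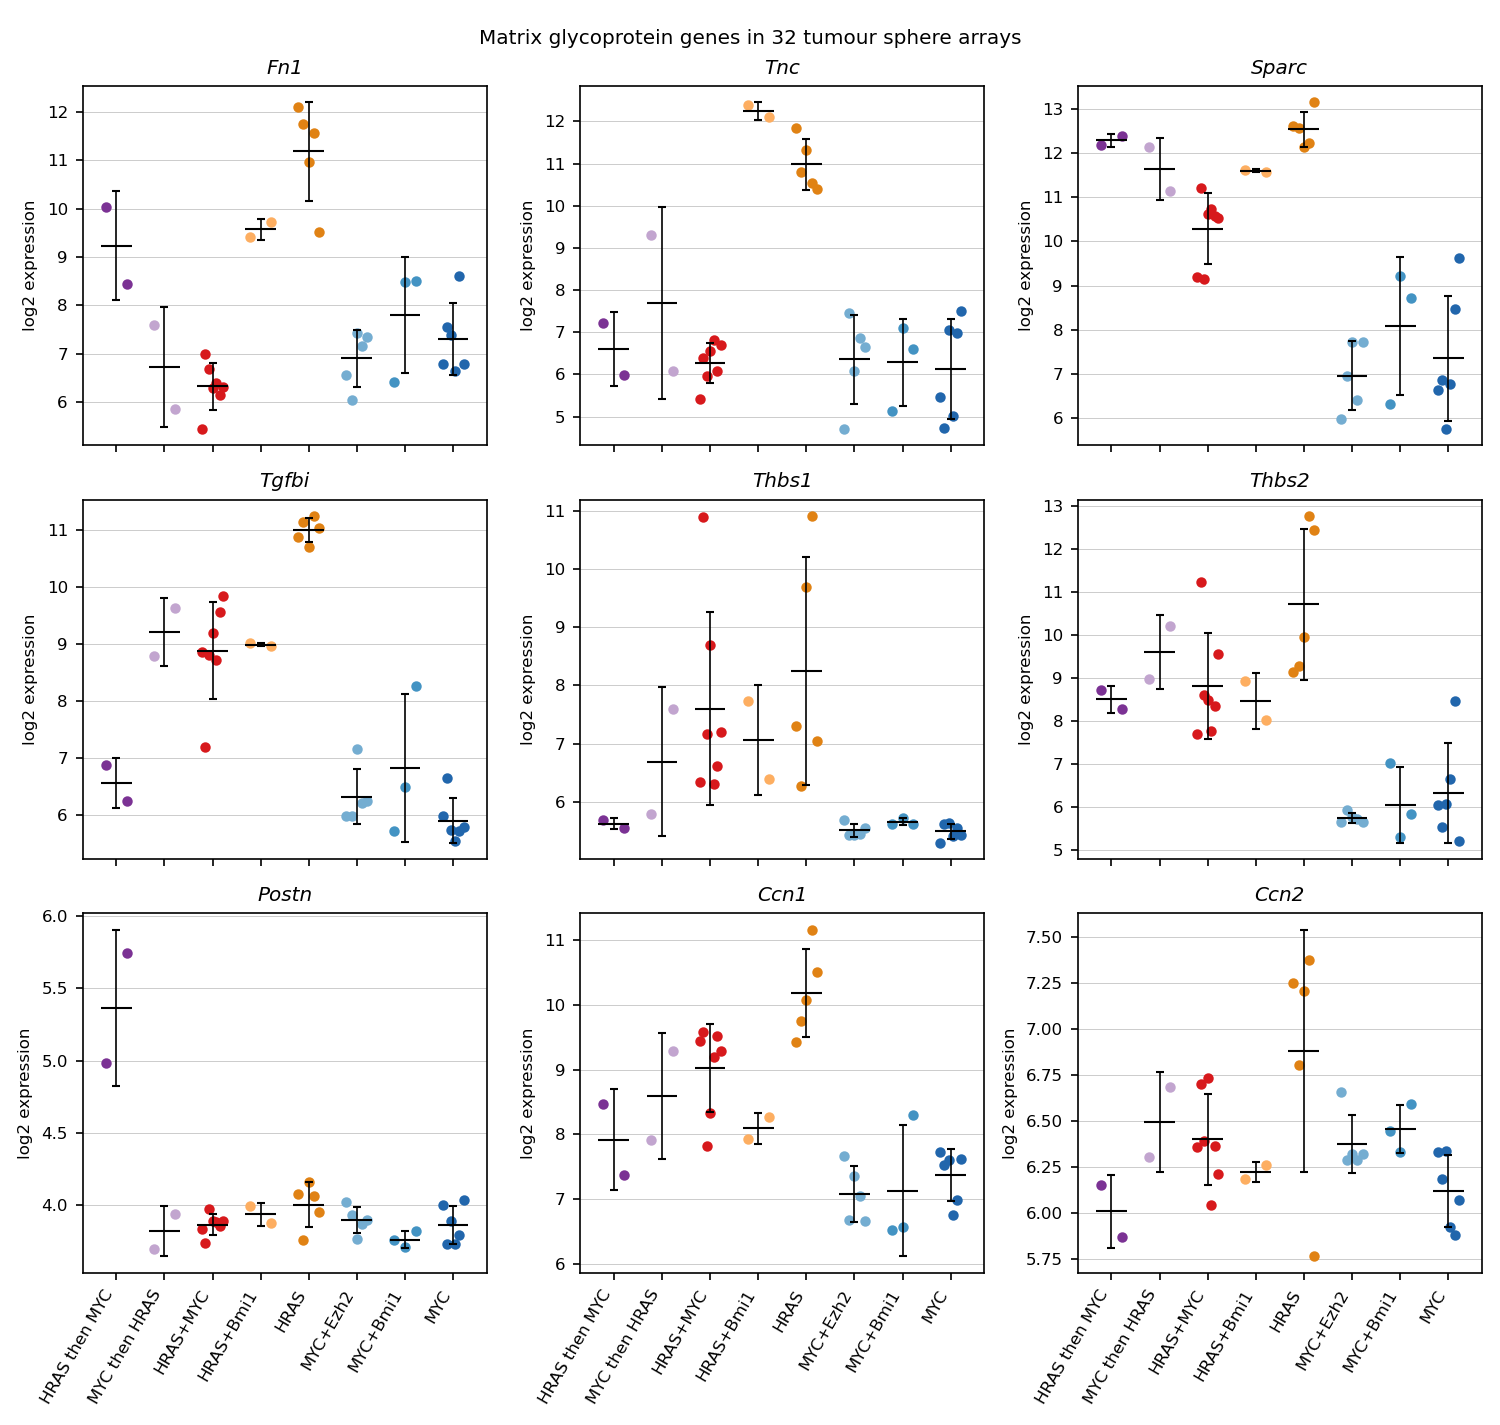
Log2 expression of the 9 measured matrix glycoprotein genes (y axis, 1 panel per gene, each with its own scale) in the 8 groups (x axis). Each point is 1 array, the horizontal bar is the group mean and the whisker is 1 SD. Tgfbi runs from 10.71 to 11.25 in the HRAS arrays and from 5.55 to 6.65 in the MYC arrays, and Postn lies above 4.16 in the HRAS then MYC arrays alone.

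Fn1, on chromosome 1 (71585473 to 71653280), stood at 12.10, 11.75, 10.96, 11.56 and 9.53 in the HRAS arrays, against a lowest, median and highest MYC level of 6.64, 7.10 and 8.62. Every HRAS array was above every MYC array, although HRAS replicate 5 lay near the top of the MYC range. The difference was 3.88 ± 0.46 (SE, adjusted p = 1.50e-07), or 14.7-fold. Tnc (chromosome 4, 63959785 to 64047015) had 11.84, 10.81, 11.33, 10.53 and 10.40 in HRAS arrays, and 4.74, 6.23 and 7.51 as the lowest, median and highest MYC levels. The gap between the groups was wide, and Tnc rose by 4.85 ± 0.55 (adjusted p = 8.40e-08), a 28.9-fold difference. Sparc, whose product binds collagen (chromosome 11, 55394159 to 55420080), was even in HRAS arrays at 12.63, 12.57, 12.14, 12.23 and 13.16. In MYC arrays it was scattered, with 5.75, 6.82 and 9.63 as lowest, median and highest, the last in MYC replicate 6. It rose by 5.19 ± 0.55 (adjusted p = 2.51e-08), or 36.6-fold.

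The fasciclin-domain pair divided. Tgfbi (chromosome 13, 56609586 to 56639359) had 10.88, 11.14, 10.71, 11.25 and 11.04 in HRAS arrays, and a lowest, median and highest MYC level of 5.55, 5.76 and 6.65. Both groups were tight, and the 5.10 ± 0.37 difference (34.3-fold, adjusted p = 2.41e-11) was the one with the smallest p-value of the 9 genes. Postn (chromosome 3, 54359267 to 54391041) lay between 3.76 and 4.16 in HRAS arrays and between 3.73 and 4.04 in MYC arrays, far below the median of all values. For Postn the difference was 0.14 ± 0.10 and missed the threshold (adjusted p = 0.328), with overlapping groups.

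Of the thrombospondins, Thbs1 (chromosome 2, 118111876 to 118127133) had 7.31, 6.27, 9.69, 10.91 and 7.05 in HRAS arrays, while the MYC arrays spanned only 5.30 to 5.64 with a median of 5.49. HRAS cultures thus varied widely among themselves in Thbs1 (SD 1.96), all of them above the MYC range. The mean difference was 2.75 ± 0.69 (adjusted p = 0.00222). Thbs2 (chromosome 17, 14665500 to 14694262) had 9.13, 9.28, 9.95, 12.76 and 12.44 in HRAS arrays, against 5.21, 6.06 and 8.47 as lowest, median and highest in MYC arrays. The highest MYC level belonged to replicate 5, and the groups did not overlap. Thbs2 rose by 4.38 ± 0.65 (adjusted p = 5.13e-06), or 20.8-fold.

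Ccn1 (chromosome 3, 145646971 to 145649985) had 9.43, 9.75, 10.07, 11.16 and 10.51 in HRAS arrays, and 6.76, 7.56 and 7.74 as the lowest, median and highest MYC levels. All HRAS arrays were higher, by 2.81 ± 0.37 on average (7.03-fold, adjusted p = 7.44e-07). Its relative Ccn2 (chromosome 10, 24595442 to 24598683) differed far less. Ccn2 had 7.25, 6.80, 7.21, 7.38 and 5.76 in HRAS arrays, and 5.88, 6.13 and 6.33 as lowest, median and highest in MYC arrays. HRAS replicate 5 lay below all MYC arrays and the other 4 lay above them. Ccn2 rose by 0.76 ± 0.19 (adjusted p = 0.00245), and with only the arrays of both groups in the fit the adjusted p was 0.0501.

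**Figure D2:**
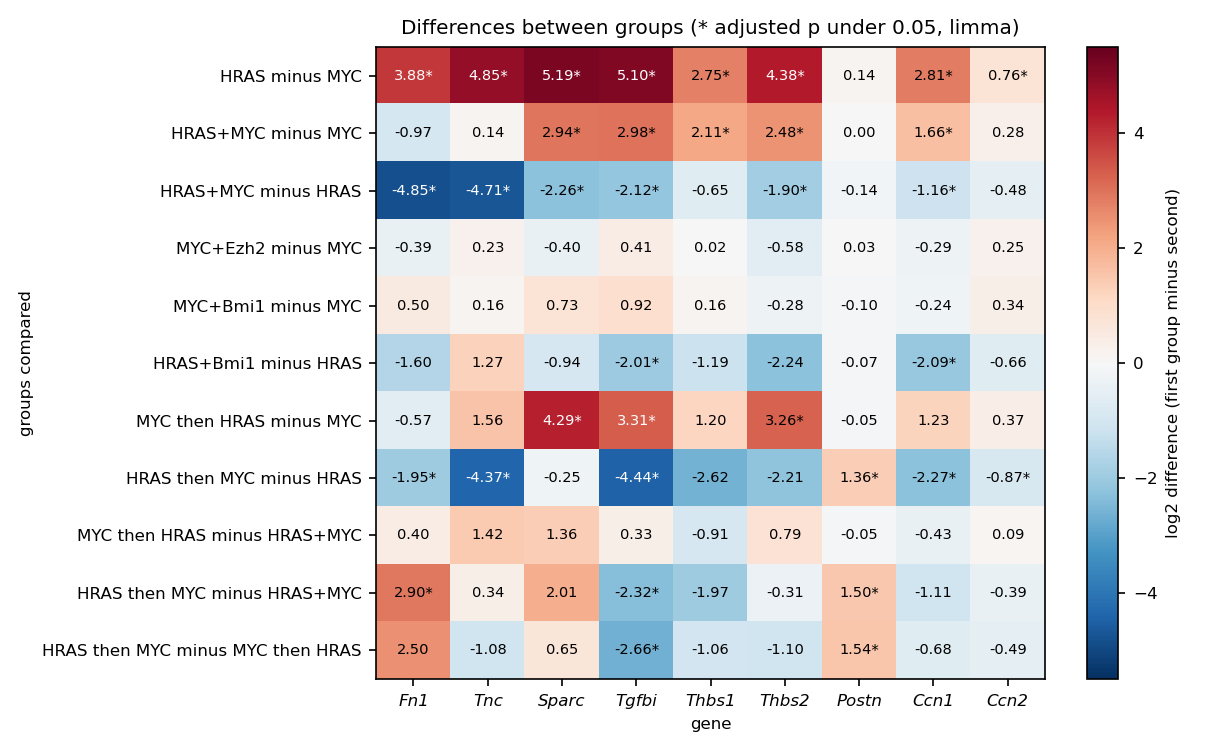
Log2 differences of the 9 genes (x axis) in 11 comparisons of groups (y axis, first-named group minus second), coloured from blue (lower in the first group) to red (higher). An asterisk marks an adjusted p under 0.05 in the limma fit. The row of HRAS against MYC carries an asterisk in 8 of 9 genes, and HRAS+MYC against HRAS holds its largest falls in Fn1 (-4.85) and Tnc (-4.71).

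The next question was what the genes do where HRAS and MYC act together. Against MYC alone, HRAS+MYC cultures had 5 of the 9 genes higher (Sparc, Tgfbi, Thbs1, Thbs2 and Ccn1) and 0 lower, while 15.8% of all genes rose and 18.4% fell. Against HRAS alone, 0 of the 9 rose and 6 fell (Fn1, Tnc, Sparc, Tgfbi, Thbs2 and Ccn1), while 11.7% of all genes rose and 13.0% fell. With each array centred on its median, 25.2% of all genes rose and 14.8% fell against MYC, where the centring moved all differences by 0.11, and 16.1% rose and 10.6% fell against HRAS. The median log2 difference of the 9 genes was 1.66 against MYC (0.03 over all genes) and -1.90 against HRAS (0.05 over all genes). The comparisons share the HRAS, MYC or HRAS+MYC arrays with each other and with the comparison above.

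Fn1 and Tnc were far below HRAS and overlapped MYC in HRAS+MYC cultures. Fn1 was 5.45, 6.32 and 7.00 as lowest, median and highest in HRAS+MYC arrays, all below the lowest HRAS array of 9.53. The difference was -4.85 ± 0.44 from HRAS (adjusted p = 6.44e-09) and -0.97 ± 0.42 from MYC, where the groups overlapped (adjusted p = 0.0773; 0.0284 with only these groups in the fit). Tnc was 5.43, 6.40 and 6.81, again with every array below the HRAS range. It fell by 4.71 ± 0.54 against HRAS (adjusted p = 2.76e-07) and differed from MYC by 0.14 ± 0.51 (adjusted p = 0.863).

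Sparc and Tgfbi took positions between the single-oncogene groups. Sparc was 9.14, 10.58 and 11.21 as lowest, median and highest in HRAS+MYC arrays, all below the HRAS range and overlapping MYC only through MYC replicate 6 (9.63). Its difference was 2.94 ± 0.51 from MYC (adjusted p = 3.89e-05) and -2.26 ± 0.53 from HRAS (adjusted p = 0.00232). Tgfbi was 7.20, 8.86 and 9.85, below every HRAS array and above every MYC array. It was 2.98 ± 0.34 above MYC (adjusted p = 7.68e-08) and 2.12 ± 0.36 below HRAS (log2 difference -2.12, adjusted p = 7.27e-05). HRAS+MYC replicate 2 was the low one in Tgfbi, and replicates 1 and 3 were the low ones in Sparc.

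Thbs1 was 6.31, 7.16 and 10.88 as lowest, median and highest in HRAS+MYC arrays, with an SD of 1.66 beside 1.96 in HRAS, and the highest came from replicate 2. All 7 were above the MYC arrays, by 2.11 ± 0.63 on average (adjusted p = 0.00979), and the difference from HRAS of -0.65 ± 0.66 did not pass (adjusted p = 0.526, 95% interval -2.01 to 0.71). Thbs2 was 7.69, 8.48 and 11.24, with the top value again in replicate 2. It was 2.48 ± 0.60 above MYC (adjusted p = 0.00168) and fell by 1.90 ± 0.63 against HRAS (adjusted p = 0.0269). The call against HRAS was lost without HRAS+MYC replicate 1 (adjusted p = 0.0582) or 5 (0.0541), without HRAS replicate 4 (0.121) or 5 (0.108), and with only the arrays of both groups in the fit (0.0869).

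Ccn1 was 7.82, 9.30 and 9.59 as lowest, median and highest in HRAS+MYC arrays, above the whole MYC range and overlapping the lower HRAS arrays. It was 1.66 ± 0.34 above MYC (adjusted p = 2.95e-04) and fell by 1.16 ± 0.36 against HRAS (adjusted p = 0.0171, and 0.0771 without HRAS replicate 4). Ccn2 was 6.04, 6.37 and 6.73 and passed in neither comparison, with 0.28 ± 0.18 against MYC (adjusted p = 0.234) and -0.48 ± 0.19 against HRAS (adjusted p = 0.0590). Without the low HRAS replicate 5 the Ccn2 difference from HRAS was -0.76 ± 0.13 (adjusted p = 1.18e-04). It also passed without HRAS+MYC replicate 2 (0.0452) or 4 (0.0438). Postn lay between 3.74 and 3.97 and passed in neither (adjusted p = 0.994 and 0.331).

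The Polycomb genes were examined next. Neither in MYC+Ezh2 cultures nor in the arrays labelled MYC+Bmi1 did a member pass against MYC. In MYC+Ezh2 against MYC 0 of 9 passed, 0 had an unadjusted p under 0.05, and the median log2 difference was 0.02, while 0.246% of all genes passed. MYC+Ezh2 arrays ran from 6.05 to 7.44 in Fn1, 4.71 to 7.47 in Tnc, 5.97 to 7.73 in Sparc, 5.98 to 7.15 in Tgfbi, 5.64 to 5.94 in Thbs2 and 6.66 to 7.66 in Ccn1, and overlapped MYC in all 9 genes. The 95% intervals of the differences were wide, from -1.53 to 0.74 for Sparc and from -0.91 to 1.36 for Tnc. In the arrays labelled MYC+Bmi1 against MYC 0 of 9 passed and 1 had an unadjusted p under 0.05, Tgfbi at 0.92 ± 0.44 (adjusted p = 0.412), while 0.15% of all genes passed. Tgfbi had 5.73, 6.50 and 8.26 in the 3 arrays labelled MYC+Bmi1, the last far above the MYC range. Sparc had 6.31, 9.22 and 8.73 and Fn1 6.41, 8.48 and 8.52 in the same arrays, so that replicate 1 was the low one in all 3 genes.

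Adding Bmi1 to HRAS was accompanied by lower Tgfbi and Ccn1. Of the 9 genes, 2 fell and 0 rose, while 3.04% of all genes fell and 2.87% rose (3.97% and 2.13% with arrays centred on their medians). Tgfbi was 9.01 and 8.97 in the HRAS+Bmi1 arrays, below the lowest HRAS array of 10.71, and fell by 2.01 ± 0.52 (adjusted p = 0.0179). Ccn1 was 7.92 and 8.27, below the lowest HRAS array of 9.43, and fell by 2.09 ± 0.51 (adjusted p = 0.0123). Neither call held with 1 HRAS+Bmi1 array left out: the adjusted p was 0.212 and 0.178 for Tgfbi and 0.241 and 0.0972 for Ccn1, without replicates 1 and 2 in that order. Tnc was 12.39 and 12.10, above all HRAS arrays, a difference of 1.27 ± 0.77 that did not pass (adjusted p = 0.424).

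Fn1 was 9.42 and 9.73 in HRAS+Bmi1 arrays, and Thbs2 was 8.93 and 8.01. Neither the Fn1 difference of -1.60 ± 0.63 (adjusted p = 0.151) nor the Thbs2 difference of -2.24 ± 0.90 (adjusted p = 0.159) passed. Sparc at 11.63 and 11.58, Thbs1 at 7.72 and 6.39 and Ccn2 at 6.18 and 6.26 did not pass either. Without HRAS replicate 5, Fn1 (-2.02 ± 0.59, adjusted p = 0.0460) and Ccn2 (-0.94 ± 0.18, adjusted p = 0.00221) passed. The difference of HRAS+Bmi1 from HRAS was also set against that of the arrays labelled MYC+Bmi1 from MYC, in which Bmi1 itself did not pass. These differences departed from each other in 1 of the 9 genes, Tgfbi, by -2.93 ± 0.68 (adjusted p = 0.0190), while 2.43% of all genes passed that test. This Tgfbi call was lost without HRAS+Bmi1 replicate 1 (adjusted p = 0.134) or 2 (0.104) and without MYC+Bmi1 replicate 3 (0.0781), and Ccn2 passed without HRAS replicate 5 (0.00271).

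The secondary tumours differed in the order in which the oncogenes were added. With 2 arrays in each of these groups, order cannot be told apart from the tumour that the cells came from. When HRAS was added to MYC tumour cells, 3 of the 9 genes rose against MYC (Sparc, Tgfbi and Thbs2) and 0 fell, while 9.83% of all genes rose and 10.6% fell (12.6% and 8.34% with arrays centred). Against HRAS+MYC, 0 of 9 passed and 0 had an unadjusted p under 0.05, while 0.11% of all genes passed. Sparc was 12.15 and 11.15 in MYC then HRAS arrays, above all MYC arrays, and rose by 4.29 ± 0.75 (adjusted p = 1.08e-04). Tgfbi was 8.80 and 9.64 and rose by 3.31 ± 0.50 (adjusted p = 1.98e-05). Thbs2 was 8.99 and 10.21 and rose by 3.26 ± 0.88 (adjusted p = 0.00795, and 0.175 without MYC then HRAS replicate 2).

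The MYC then HRAS cultures differed from each other in other genes. Tnc was 9.31 in replicate 1 and 6.08 in replicate 2, Fn1 was 7.60 and 5.85, and Thbs1 was 5.79 and 7.59. Replicate 1 was thus the higher in Tnc and Fn1 and the lower in Thbs1, Thbs2 and Ccn1 (7.91 and 9.29). Tnc was 1.56 ± 0.75 above MYC (adjusted p = 0.149, and 0.0209 without replicate 2), and Ccn1 was 1.23 ± 0.50 above MYC (adjusted p = 0.0828, and 0.0467 without replicate 1). Ccn2 was 6.30 and 6.69, and Postn was 3.70 and 3.94.

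When MYC was added to HRAS tumour cells, 5 of the 9 genes fell against HRAS (Fn1, Tnc, Tgfbi, Ccn1 and Ccn2) and 1 rose (Postn). Of all genes, 6.3% rose and 6.21% fell, and with arrays centred on their medians, which moved the differences by 0.15, 12.4% rose and 4.53% fell. Tnc was 7.23 and 5.99 in HRAS then MYC arrays, below every HRAS array, and fell by 4.37 ± 0.77 (adjusted p = 3.43e-04). Tgfbi was 6.87 and 6.25, close to the MYC range, and fell by 4.44 ± 0.52 (adjusted p = 1.95e-06). Sparc kept a high level of 12.19 and 12.40, and its difference of -0.25 ± 0.76 did not pass (adjusted p = 0.911, 95% interval -1.81 to 1.32).

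Fn1 was 10.03 and 8.44 in HRAS then MYC arrays, where replicate 1 overlapped HRAS, and fell by 1.95 ± 0.63 (adjusted p = 0.0420). That call was lost with the arrays centred (0.0507), with only the arrays of both groups in the fit (0.151), and without HRAS replicate 1 (0.0888), 2 (0.0739) or 4 (0.0796) or HRAS then MYC replicate 2 (0.574). Ccn1 was 8.47 and 7.37 and fell by 2.27 ± 0.51 (adjusted p = 0.00347, and 0.177 without HRAS then MYC replicate 2). Ccn2 was 6.15 and 5.87 and fell by 0.87 ± 0.26 (adjusted p = 0.0283). The Ccn2 call was lost with the arrays centred (0.0591), with only the arrays of both groups in the fit (0.272) and without HRAS replicate 1 (0.0618), 3 (0.0535) or 4 (0.0727) or either HRAS then MYC array (0.0947 without replicate 1 and 0.320 without 2). Thbs1 at 5.70 and 5.56 lay inside the range of the MYC-containing PNET groups. Its difference from HRAS of -2.62 ± 0.95 did not pass (adjusted p = 0.0701). It passed without HRAS replicate 2 (0.0253) or 5 (0.0486), without dim genes (0.0464) and with array weights (0.0393). Thbs2 was 8.72 and 8.28, -2.21 ± 0.90 from HRAS (adjusted p = 0.114, and 0.0466 with array weights).

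Postn, a ligand of integrins best known from fibroblasts and bone, was 4.98 and 5.75 in the HRAS then MYC arrays, and no other array exceeded 4.16. It rose by 1.36 ± 0.14 against HRAS (adjusted p = 2.62e-07), by 1.50 ± 0.13 against HRAS+MYC (1.01e-08) and by 1.54 ± 0.16 against MYC then HRAS (7.31e-07, and 0.0561 with only these 4 arrays in the fit). All levels of Postn lay below the median of all values, where RMA compresses differences. The same arrays were high in some genes of a fibroblast and meninges marker list. The mean level of the list was 6.45 to 7.05, overlapping 6.24 to 6.81 in HRAS arrays. It was 5.85 to 5.90 in MYC then HRAS and 5.69 to 5.89 in HRAS+MYC arrays. Of the 10 genes of the list, 4 rose against HRAS: Col3a1 by 2.13, Col6a3 by 2.64, Lum by 0.96 and Col1a1 by 0.59. None passed as lower, but Pdgfra (7.16 to 7.47) and Foxc1 (5.85 to 6.56) lay below all HRAS arrays. Those ran from 8.56 to 10.22 in Pdgfra and from 6.65 to 7.61 in Foxc1. Of 9 pericyte and smooth muscle markers 1 rose against HRAS (Pdgfrb, by 1.57) and 2 fell, Anpep at -1.54 and Rgs5 at -0.87. Of all genes, 6.3% rose and 6.21% fell in that comparison (12.4% and 4.53% with arrays centred). Of 12 microglia and macrophage markers 1 rose against HRAS (Tmem119, by 1.26) and 1 fell (Cd68, at -2.70). Of 10 endothelial markers 1 rose (Cdh5, by 0.93) and 1 fell (Flt1, at -1.83). The microglia and endothelial counts lie near the shares of all genes. Among the fibroblast markers that rose, Col3a1 stood at 11.67 to 11.79 and Col6a3 at 7.90 to 9.26 in HRAS then MYC arrays. Col1a1 stood at 6.82 to 7.16, and all of these lay above the median of all values. Lum, at 3.55 and 4.48, lay far below it. The part of such cells in the Postn level was not tested.

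**Figure D3:**
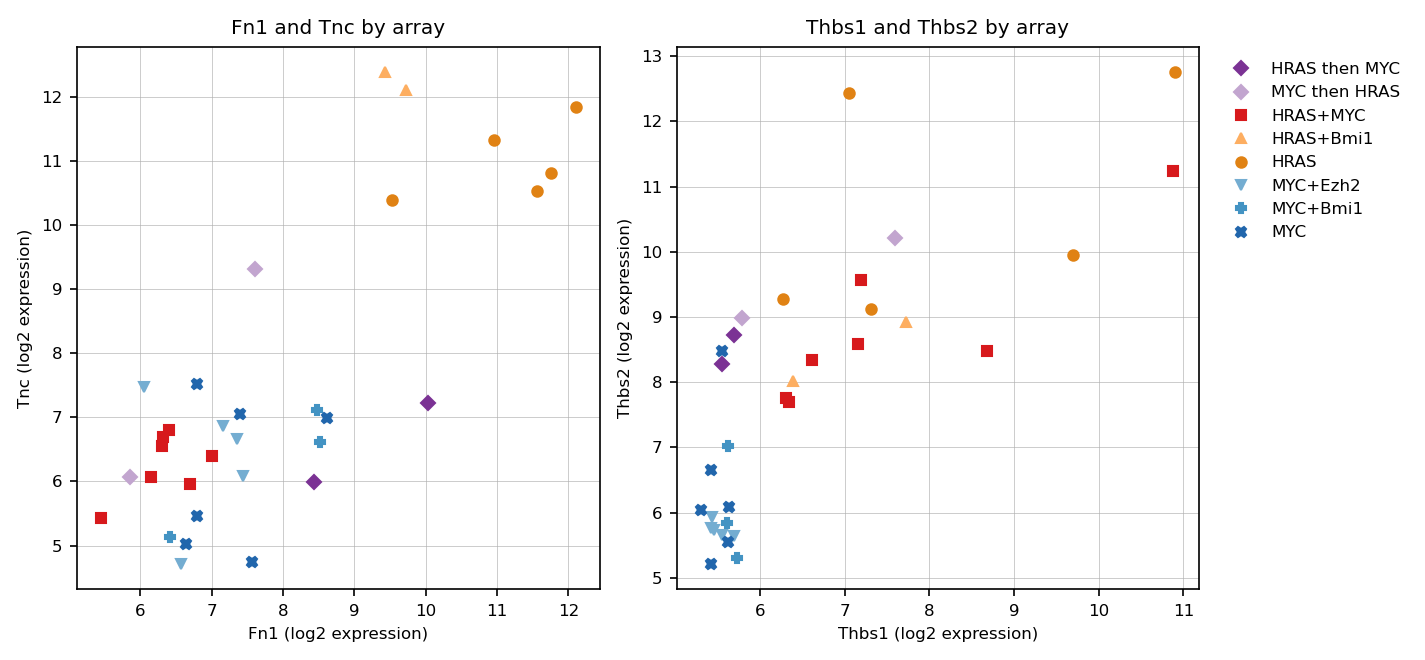
Log2 levels of Tnc against Fn1 (left) and of Thbs2 against Thbs1 (right), 1 point per array, with colour and marker giving the group. HRAS arrays lie top right in the left panel, and the HRAS then MYC arrays hold an Fn1 level of 10.03 and 8.44 at a Tnc level of 7.23 and 5.99.

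With the same oncogenes present, HRAS then MYC cultures differed from HRAS+MYC cultures in 3 of the 9 genes. Fn1 and Postn rose and Tgfbi fell, while 6.89% of all genes rose and 5.17% fell (8.71% and 4.01% with arrays centred). Fn1 was higher by 2.90 ± 0.61 (adjusted p = 0.00165, and 0.133 without HRAS then MYC replicate 1). Tgfbi was lower, by -2.32 ± 0.50 (adjusted p = 0.00194, and 0.109 without HRAS then MYC replicate 2). Sparc was 2.01 ± 0.73 higher, which did not pass (adjusted p = 0.0741). It passed without dim genes (0.0498), with only the arrays of both groups in the fit (0.0199), with array weights (0.00367) and with the replicate block (0.0178). Set directly against MYC then HRAS, 1 of the 9 genes rose (Postn) and 1 fell (Tgfbi, by 2.66 ± 0.62, adjusted p = 0.0121), while 1.58% of all genes rose and 1.7% fell (2.36% and 1.37% with arrays centred). The Tgfbi call was lost without MYC then HRAS replicate 2 (adjusted p = 0.243) or HRAS then MYC replicate 2 (0.221). Fn1, 2.50 ± 0.76 higher, did not pass (adjusted p = 0.0698), and it passed without dim genes (0.0459) and with array weights (0.00777). Without MYC then HRAS replicate 1, which leaves 1 array in that group, the Fn1 difference was 3.38.

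Ordered by group mean, 6 of the genes (Fn1, Sparc, Tgfbi, Thbs1, Thbs2 and Ccn1) and Ccn2 were highest in HRAS cultures. Tnc was highest in HRAS+Bmi1 (12.25 ± 0.20, SD, n = 2), followed by HRAS (10.98 ± 0.60, n = 5) and then MYC then HRAS (7.69 ± 2.29, n = 2), and these 3 neighbours did not overlap. The other 5 groups had Tnc means between 6.13 and 6.61 and overlapped. In Sparc the order was HRAS (12.54 ± 0.40), HRAS then MYC (12.30 ± 0.15), MYC then HRAS (11.65 ± 0.71), HRAS+Bmi1 (11.60 ± 0.04), HRAS+MYC (10.29 ± 0.80), MYC+Bmi1 (8.09 ± 1.56), MYC (7.35 ± 1.42) and MYC+Ezh2 (6.96 ± 0.78). Every group with HRAS stood above every group without it in mean Sparc, with gaps between arrays after HRAS then MYC and after HRAS+Bmi1.

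In Tgfbi only HRAS (11.00 ± 0.21) was separated from its next neighbour, MYC then HRAS (9.22 ± 0.60), and HRAS then MYC (6.56 ± 0.44) fell among the MYC groups. In Thbs1 the gap lay below MYC then HRAS (6.69 ± 1.28), and the lower 4 groups ran from 5.49 to 5.66. In Postn it lay below HRAS then MYC (5.36 ± 0.54), with the others between 3.76 and 4.00. In Ccn2 it lay between MYC+Ezh2 (6.37 ± 0.16) and HRAS+Bmi1 (6.22 ± 0.06). Neighbours in the orders of Fn1, Thbs2 and Ccn1 all overlapped. Differences between the 8 groups took up 91.1% of the variance of Tgfbi, 87.9% of Postn, 87.0% of Sparc, 86.2% of Tnc, 85.4% of Fn1, 79.7% of Ccn1, 76.4% of Thbs2, 52.9% of Thbs1 and 44.2% of Ccn2. Thbs1 and Ccn2 thus had the smallest shares between groups. In Ccn2 the SDs within groups ran from 0.06 to 0.66, and the HRAS arrays held both its lowest (5.76) and its highest level (7.38).

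Across the 32 arrays, which share a normalization and fall into groups, several of the genes varied together. The highest Pearson r between members were 0.86 for Tgfbi and Ccn1, 0.80 for Thbs2 and Ccn1, 0.79 for Fn1 and Tnc, 0.78 for Sparc and Thbs2 and 0.77 for Thbs1 and Thbs2. For deviations from the group means r was 0.38, 0.26, 0.50, 0.04 and 0.58 in the same order. Among these pairs it was highest for the thrombospondins and for Fn1 with Tnc. Outside them it was 0.56 for Thbs1 with Ccn2 and 0.53 for Tnc with Sparc. With the other members, Postn had r from -0.15 (Ccn2) to 0.34 (Sparc), among them 0.01 with Tnc and -0.09 with Tgfbi.

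Among all other genes, those most like each member over the 32 arrays were taken as the 3 with the highest r. For Fn1 they were Lama4, a laminin chain, Tgfb3 and Arhgap24 (each 0.87). For Tnc they were Irf2bpl and Frk (0.90 each) and mouse Myc (0.87), where the labels do not say whether the probe set reads the added MYC. For Sparc they were the procollagen enhancer Pcolce (0.93), Ppp1r18 (0.93) and the urokinase Plau (0.92). For Tgfbi they were Mast4 (0.92), the protein C receptor Procr (0.91) and Stac2 (0.91). Thbs1 was nearest to Insl6 (0.88), Colec12 (0.82) and Tmem43 (0.80), and Thbs2 to Sh3glb1 (0.91), Ube2d3 (0.90) and Adh7 (0.90). Postn was nearest to Crispld1 (0.93), Lta4h (0.86) and Papln (0.85). Ccn1 was nearest to S100a7a (0.91), the kinase Map3k8 (0.91) and Plekho2 (0.90), and Ccn2 to Cyp3a13 (0.76), Xdh (0.76) and the growth factor Gdnf (0.74). For deviations from the group means r was -0.04 between Lama4 and Fn1 and 0.82 between Insl6 and Thbs1.

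Of 23 other measured genes of the same families (tenascins, thrombospondins, CCN, SPARC-like, fasciclin-domain and sialoprotein genes), 3 rose and 3 fell in HRAS against MYC, with a median difference of -0.01. Those shares lie near the 15.4% and 18.0% of all genes. In HRAS+MYC 5 rose and 5 fell against MYC (15.8% and 18.4% of all genes), and 2 rose and 1 fell against HRAS (11.7% and 13.0% of all genes). Ccn3 (Nov), a CCN gene, was 8.11 ± 0.43 (SD, n = 5) in HRAS and 8.80 ± 0.99 (n = 7) in HRAS+MYC against 4.65 ± 0.16 (n = 6) in MYC cultures, rising by 3.46 ± 0.33 and 4.15 ± 0.30 (adjusted p = 3.20e-09 and 1.65e-11). Ccn4 rose by 1.41 ± 0.18 in HRAS against MYC and fell by 1.43 ± 0.18 in HRAS+MYC cultures relative to HRAS cultures, with adjusted p-values of 7.42e-07 and 9.75e-07. Smoc1, a SPARC-like gene, ran the other way. It was 5.79 ± 0.19 in HRAS and 5.88 ± 0.16 in HRAS+MYC against 10.03 ± 1.17 in MYC cultures, and fell by 4.24 ± 0.38 and 4.15 ± 0.35 (adjusted p = 9.94e-10 and 2.62e-10).

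In HRAS+MYC against MYC, Smoc2 rose by 2.88 ± 0.31, and the SPARC-like proteoglycan gene Spock2 and Thbs3 fell by 3.00 ± 0.42 and 1.20 ± 0.21 (adjusted p from 2.60e-08 to 4.47e-05). The secondary tumours and Bmi1 were also looked at in these genes, named there after their values were seen. Ccn3 was 4.58 and 4.83 in HRAS then MYC arrays and fell by 3.40 ± 0.45 against HRAS (adjusted p = 1.38e-05). It fell by 3.44 ± 0.45 in HRAS+Bmi1 against HRAS (adjusted p = 1.77e-05) and its difference there departed from that of the arrays labelled MYC+Bmi1 from MYC by -3.46 ± 0.59 (adjusted p = 0.00120). It stood at 4.60 and 4.74 in the HRAS+Bmi1 arrays, so that both these groups lay close to the MYC range of 4.44 to 4.83.

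A further list held other matrix glycoproteins (fibulins, nidogens, fibrillins, matrilins, emilins, latent TGF-beta binding proteins and others). Of 44 measured, 13 rose and 5 fell in HRAS against MYC, 7 rose and 6 fell in HRAS+MYC against MYC, and 3 rose and 12 fell in HRAS+MYC against HRAS. The counts against MYC in HRAS+MYC cultures lie near the shares of all genes (15.8% and 18.4%). All genes stood at 15.4% and 18.0% for HRAS against MYC and at 11.7% and 13.0% for HRAS+MYC against HRAS. The medians of the 44 differences were 0.15, 0.01 and -0.08. Ltbp1, which holds latent TGF-beta in the matrix, rose by 5.40 ± 0.40 in HRAS and by 4.03 ± 0.37 in HRAS+MYC against MYC (adjusted p = 3.21e-11 and 1.37e-09). Ecm1 rose by 5.22 ± 0.18 and 3.82 ± 0.17, and the basement membrane gene Nid1 rose by 4.01 ± 0.31 in HRAS+MYC. The elastic fibre genes Mfap4 and Eln fell by 1.29 ± 0.28 and 0.62 ± 0.15 in HRAS and by 1.30 ± 0.25 and 0.55 ± 0.14 in HRAS+MYC against MYC. Edil3, an integrin ligand, rose by 3.23 ± 0.47 in HRAS against MYC and fell by 4.26 ± 0.45 in HRAS+MYC against HRAS. The fibulins Fbln2 and Efemp1 also fell against HRAS, by 2.86 ± 0.36 and 1.54 ± 0.19. Adjusted p-values of these changes ran from 5.05e-18 to 0.00272.

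**Figure D4:**
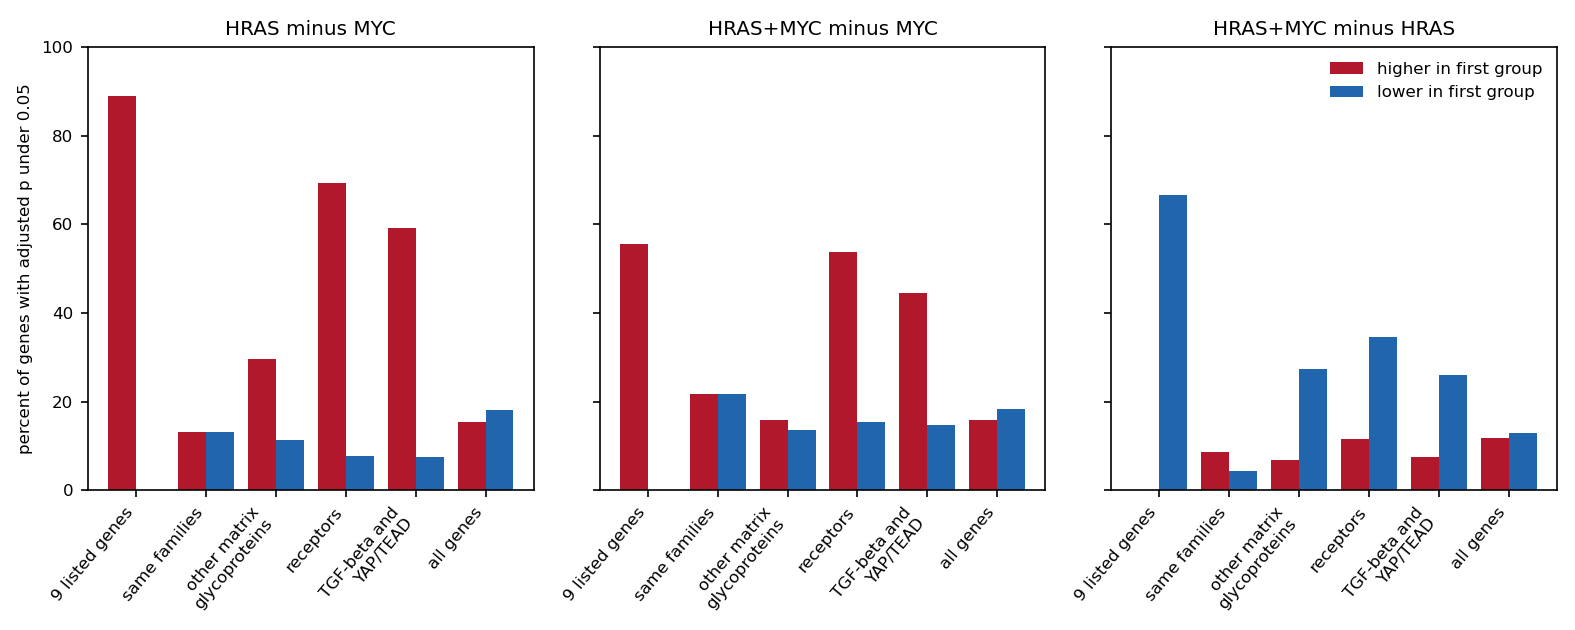
Percent of the measured genes of each list with an adjusted p under 0.05 (y axis), higher (red) or lower (blue) in the first-named group, for the 9 matrix glycoprotein genes, 4 related lists and all 19938 genes (x axis), in 3 comparisons (panels). Receptors reach 18 of 26 genes higher in HRAS than in MYC, while all genes stand at 15.4% higher and 18.0% lower.

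The receptors of these proteins (integrins, syndecans and other surface receptors) rose more often than they fell against MYC. Of 26 measured, 18 rose and 2 fell in HRAS against MYC, 14 rose and 4 fell in HRAS+MYC against MYC, and 3 rose and 9 fell in HRAS+MYC against HRAS. Of all genes, 15.4%, 15.8% and 11.7% rose and 18.0%, 18.4% and 13.0% fell in these comparisons. The integrin chain Itga3 rose by 4.59 ± 0.35 in HRAS and 4.64 ± 0.33 in HRAS+MYC against MYC. The fibronectin receptor chain Itga5 rose by 4.09 ± 0.30 in HRAS, and the urokinase receptor Plaur by 3.56 ± 0.32 in HRAS and 4.51 ± 0.30 in HRAS+MYC. The leukocyte integrin chain Itgb7 was above HRAS in HRAS+MYC cultures, by 2.29 ± 0.27, and stood 4.48 ± 0.25 above MYC. Sdc3, a syndecan of the nervous system, fell by 2.22 ± 0.42 in HRAS+MYC against MYC. Sdc2 (-3.02 ± 0.34), the fibronectin-binding integrin chain Itga4 (-2.74 ± 0.53) and the thrombospondin receptor Lrp1 (-2.60 ± 0.34) fell in HRAS+MYC against HRAS. Adjusted p-values of these receptor changes ran from 8.61e-14 to 3.39e-04. In the secondary tumours 0 receptors rose and 10 fell in HRAS then MYC against HRAS, where 6.3% of all genes rose and 6.21% fell. In MYC then HRAS against MYC 11 rose and 2 fell, where 9.83% of all genes rose and 10.6% fell.

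Of 27 measured genes of TGF-beta and YAP/TEAD signalling, pathways known to drive several of the 9 genes, 16 rose and 2 fell in HRAS against MYC. In HRAS+MYC 12 rose and 4 fell against MYC, and 2 rose and 7 fell against HRAS, beside the shares of all genes just given for the receptors. The receptor kinase Axl, a YAP target, rose by 5.01 ± 0.37 in HRAS and by 3.33 ± 0.34 in HRAS+MYC against MYC. The ligand Tgfb1 rose by 3.57 ± 0.28 and 4.30 ± 0.26, and Wwtr1, which encodes the YAP relative TAZ, by 3.56 ± 0.26 and 3.11 ± 0.24. Amotl2, which restrains YAP, fell by 1.64 ± 0.27 and 1.79 ± 0.25. Tead2 and Tgfb2 fell by 1.19 ± 0.29 and 1.18 ± 0.22 in HRAS+MYC against MYC. Tgfb3, Tgfb2 and the receptor Tgfbr2 fell in HRAS+MYC against HRAS, with differences of -2.58 ± 0.32, -2.13 ± 0.23 and -1.78 ± 0.23. Adjusted p-values of these changes ran from 2.62e-13 to 0.00170. Among the ligands, Tgfb1 thus rose against MYC in HRAS+MYC cultures while Tgfb2 fell against both MYC and HRAS.

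Markers of other cell types were read beside these results. Of 12 microglia and macrophage markers, 10 to 12 lay below the median of all values in every group, with Csf1r between 4.18 and 4.89 and C1qa between 4.85 and 5.61. Cd68, a lysosomal protein, rose by 3.13 in HRAS and by 3.60 in HRAS+MYC against MYC and lay between 6.86 and 11.21 in HRAS arrays. Itgam fell in HRAS against MYC, at -0.30 (adjusted p = 0.0389), so 1 of the 12 rose and 1 fell there. Tmem119 lay above the median in HRAS then MYC cultures, at 6.63 to 6.81. Of 10 endothelial markers 9 or 10 lay below the median in every group. The endothelial receptor gene Flt1 rose by 1.90 in HRAS and by 2.40 in HRAS+MYC against MYC, and it reached 9.06 in HRAS arrays. Tek also rose in HRAS against MYC, by 0.38, so 2 of the 10 rose and 0 fell there. The mean level of 9 pericyte and smooth muscle markers lay between 5.09 and 5.89 in all arrays. Of these 9, 2 rose and 0 fell in HRAS against MYC, Anpep by 2.14 and Rgs5 by 0.85. Of all genes, 15.4% rose and 18.0% fell, so 2 of 9 lies near the share that rose. Fibroblast and meninges markers averaged 6.24 to 6.81 in HRAS and 5.69 to 5.89 in HRAS+MYC against 5.23 to 5.77 in MYC arrays. Of the 10, 4 rose and 0 fell in HRAS against MYC, with Col3a1 up by 3.47 and Twist1 by 2.33. These members, like Cd68, Flt1, Tek, Anpep and Rgs5, moved in the same direction as the 8 genes that rose, and Itgam moved the other way. Of 10 astrocyte markers 2 rose in HRAS against MYC, Gja1 by 2.25 and Aldh1l1 by 1.69. The 5 that fell also moved the other way: Slc1a3 at -4.28, Fabp7 at -3.90, Slc1a2 at -1.92, Aldoc at -1.48 and Aqp4 at -0.92. The same shares of all genes stand beside the microglia, endothelial, fibroblast and astrocyte counts. In HRAS+MYC against HRAS 4 of the 10 fibroblast and meninges markers fell and 0 rose, with Pdgfra at -2.71 and Col3a1 at -2.04. Of the 9 pericyte and smooth muscle markers 3 fell and 0 rose, with Acta2 at -1.36. Among microglia and endothelial markers 0 passed, and of the astrocyte markers 1 rose and 1 fell. Of all genes, 11.7% rose and 13.0% fell in that comparison. The part of such cells in the differences of the 9 genes was not tested.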

How the data were processed

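The authors deposited 1 log2 level for each probe set on each array. The submitters' processing notes name RMA and Affymetrix Expression Console 1.0. RMA equalizes the distribution of probe values across arrays, so a rise or fall of total RNA would not be seen, although the medians of the deposited probe set values still differed between arrays. It compresses differences of dim probe sets. Whether the authors filtered probe sets is not stated. The platform annotation gave a single gene symbol to 21789 of 35557 probe sets, several to 1621 and did not list 12147. Single-symbol probe sets were used, for a gene with several (999 genes) the one with the highest mean, which left 19938 genes. All 9 measured members had 1 probe set. Positions come from RefSeq (GRCm38.p6).

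One linear model with 8 group means was fitted to the 32 arrays with limma 3.58.1 in R 4.3.3, with moderated variances. Adjusted p-values are 2-sided, adjusted by Benjamini-Hochberg across all 19938 genes within each of 12 contrasts, and a gene passed under 0.05. Groups of 2 arrays are assumed to vary like the others. Scripts were tested on simulated data. The members, lists and tests were chosen with earlier results of these data known. From the 4 related lists, genes were named by a rule: in the comparisons among HRAS, MYC and HRAS+MYC, up to 3 per list and direction with the largest change among those that passed and whose arrays did not overlap. For each member the 3 genes with the highest Pearson r were named, leaving out unnamed gene models, smell receptors, small RNAs and genes of the X and Y chromosomes. Ezh2, Bmi1, and Ccn3 in further comparisons, were named outside this rule. Alternatives changed the probe set choice, a filter on dim genes, array centring, the arrays in the fit, the variance model, array weights, the replicate block and each array in turn.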

Additional observations from a re-analysis of the deposited data

Results flagged for a closer look

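In 2 groups, HRAS+MYC and MYC+Ezh2, single arrays stood apart from the others by a Dixon test. Tgfbi was 7.20 in HRAS+MYC replicate 2, while the other HRAS+MYC arrays lay between 8.72 and 9.85. The same array held the highest Thbs1 (10.88) and Thbs2 (11.24) of its group. Tgfbi was 7.15 in MYC+Ezh2 replicate 3, above 5.98 to 6.26 in the others. Ccn2 was 6.66 in MYC+Ezh2 replicate 1, above 6.29 to 6.32 in the others. Of 36 sets of arrays tested, 3 held such an array, and chance marks about 1 in 20.

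The Tgfbi difference of HRAS+Bmi1 from HRAS departed from that of the arrays labelled MYC+Bmi1 from MYC by -2.93 ± 0.68 (log2, SE, adjusted p = 0.0190). Bmi1 itself did not pass in the arrays labelled MYC+Bmi1. Tgfbi was 9.01 and 8.97 in HRAS+Bmi1 arrays against a mean of 11.00 in HRAS, and 5.73, 6.50 and 8.26 in arrays labelled MYC+Bmi1 against a mean of 5.91 in MYC. The test was no longer passed without MYC+Bmi1 replicate 3 (adjusted p = 0.0781) or without HRAS+Bmi1 replicate 1 (0.134) or 2 (0.104).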

How the results depend on the processing

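The 8 calls of HRAS against MYC and the 5 of HRAS+MYC against MYC stayed at 8 and 5 with any 1 array left out, and no member's called difference changed sign under any alternative. In HRAS+MYC against HRAS the 6 calls ranged from 4 to 7 with 1 array left out, and the 3 in MYC then HRAS against MYC from 3 to 4. In HRAS+Bmi1 against HRAS the 2 calls ranged from 0 to 4, and became 5 with array weights. In HRAS then MYC they ranged from 3 to 7 against HRAS (6 in the report), from 2 to 3 against HRAS+MYC (3 in the report, 6 with array weights) and from 1 to 3 against MYC then HRAS (2 in the report, 1 with only these groups in the fit). The 1 call on the difference between the Bmi1 comparisons ranged from 0 to 2. With array weights, Thbs1 (0.0393) and Thbs2 (0.0466) also passed in HRAS then MYC against HRAS. Leaving out MYC replicates 4 and 5 together changed 0 of 54 member results. The filter on dim genes removed Postn, which gives no value there. Groups of 2 arrays and the compression of dim probe sets limit the comparisons of secondary tumours and of HRAS+Bmi1.

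Samples of the same replicate number did not deviate together: the median correlation of their deviations was 0.01 over 79 pairs, 11 of them over 0.1. With a replicate block 105 of 108 member results kept their call. HRAS+Bmi1 against HRAS had 1 call (Ccn1) with the block, Tgfbi at adjusted p 0.0584, HRAS then MYC lost Fn1 against HRAS (0.121), and Sparc passed against HRAS+MYC (0.0178).

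With array weights the counts over all genes were 554 against 49 for MYC+Ezh2 and 61 against 30 for MYC+Bmi1 against MYC, 3460 against 1178 for HRAS+Bmi1 and 4384 against 2495 for HRAS then MYC against HRAS, 150 against 22 for MYC then HRAS and 5085 against 2405 for HRAS then MYC against HRAS+MYC, 1870 against 653 between the secondary tumours and 1711 against 485 for the difference between the Bmi1 comparisons. With only the groups compared in the fit the counts were 1, 1, 533 and 983 for the first 4 of these, 135 for the Bmi1 difference, and 2367 against 4074 for MYC then HRAS against MYC. MYC+Ezh2 against MYC gave 9 with the replicate block. Without MYC replicates 4 and 5 the counts were 202 for MYC+Ezh2, 245 for MYC+Bmi1 and 745 for the Bmi1 difference. The cause was not tested.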

Other observations

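The 4 relatives of the 9 genes given here were named after their values were seen. Of 23 measured relatives, 2 rose and 2 fell in HRAS then MYC against HRAS+MYC. Those counts lie near the 6.89% and 5.17% of all genes. Directly against MYC then HRAS, 2 rose and 2 fell as well, while 1.58% of all genes rose and 1.7% fell. With 2 arrays in each secondary group, order cannot be told apart from the tumour that the cells came from. Smoc2, a SPARC-like gene, was 5.80 ± 0.22 (log2, SD, n = 2) in HRAS then MYC, 10.45 ± 0.60 (n = 2) in MYC then HRAS and 9.07 ± 0.71 (n = 7) in HRAS+MYC cultures. It was 3.27 ± 0.45 (SE) lower in HRAS then MYC than in HRAS+MYC (log2 difference -3.27, adjusted p = 1.23e-05). Thbs3 was 7.78 ± 0.26 in HRAS then MYC, 6.02 ± 0.21 in MYC then HRAS and 6.14 ± 0.37 in HRAS+MYC cultures, higher by 1.65 ± 0.30 against HRAS+MYC (adjusted p = 4.42e-04). Ccn4 was 7.05 ± 0.53, 5.44 ± 0.16 and 5.35 ± 0.17 in the same groups, higher by 1.70 ± 0.24 (adjusted p = 2.16e-05). Ccn3 was 4.71 ± 0.17, 8.67 ± 0.84 and 8.80 ± 0.99, with a difference of -4.10 ± 0.43 from HRAS+MYC (adjusted p = 2.33e-07). MYC then HRAS and HRAS+MYC differed in none of these 4 genes by an amount that passed (adjusted p from 0.298 to 1.00).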
